A study of Homo sapiens with 4 samples.

Results

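The nuclear genes of respiratory complexes II to V were compared between 2 RNA-seq libraries of cells with a Ctrl shRNA and 2 libraries of cells with a STAT3 shRNA, all labelled as the hepatoma line HepG2. Members were taken by name: genes whose symbol starts with SDHA, SDHB, SDHC, SDHD, UQCR, UQCC, COA or COX and a digit, or ATP5, without pseudogenes and antisense genes. Of 27452 genes in the table, 67 met that rule, 8 in complex II, 12 in complex III, 28 in complex IV and 19 in complex V. The read-through gene ATP5MF-PTCD1 and the retrocopy UQCRHL were kept because their names meet the rule. The labels describe both groups as lines made with an shRNA and grown in the same medium, and they do not say how many clones or cultures the libraries came from. Each p-value below hence reflects only how far the 4 libraries scatter, and that scatter may be technical.

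Complex II (succinate dehydrogenase) passes electrons from succinate to ubiquinone, complex III passes them on to cytochrome c, and complex IV (cytochrome c oxidase) hands them to oxygen. Complexes III and IV pump protons out of the mitochondrial matrix, and complex V (ATP synthase) uses the returning protons to make ATP. Complex II is built from nuclear genes alone, whereas complexes III, IV and V also hold subunits coded in mitochondrial DNA, and all need assembly factors that are not part of the finished enzyme.

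Library totals ran from 17694642 to 25862027 counted reads, and 3 reads corresponded to 0.113 to 0.163 CPM (reads per 1000000, scaled by TMM). STAT3 was at 245 and 244 CPM with Ctrl shRNA and at 34.7 and 36.1 CPM with STAT3 shRNA, a log2 fold change of -2.79 (SE 0.09, edgeR quasi-likelihood test, adjusted p = 3.28e-07). Of 10 hepatocyte markers 4 were analysed. Albumin (ALB) had 0 reads in 3 libraries and 3 reads in the other, APOA1 had 0 to 2 reads, TF fell from 2.01 and 2.14 CPM to 0.900 and 0.435 CPM, and HNF4A rose from 1.27 and 1.78 CPM to 7.20 and 4.95 CPM. These 4 markers summed to 3.29 and 3.92 CPM with Ctrl shRNA and 8.14 and 5.65 CPM with STAT3 shRNA. So ALB and APOA1 were at or near 0 in cells labelled HepG2, and TF and HNF4A were low but above the floor. The other 6 listed markers were not analysed. Of the other lists, 4 fibroblast markers summed to 52.8 to 60.6 CPM with Ctrl shRNA and 35.2 to 35.4 CPM with STAT3 shRNA, and 3 immune markers to 10.8 to 14.6 and 24.1 to 28.0 CPM, nearly all of it CD68. The lower fibroblast sum came with COL1A1, at 38.1 and 43.2 CPM and then 15.0 and 14.3 CPM, whereas DCN rose by 0.46 (adjusted p = 0.0329) and PDGFRB did not pass (0.19). The 2 endothelial markers lay between 1.16 and 1.75 CPM in sum. The part of these markers in the results below was not tested. In such bulk libraries fewer cells of a type and less RNA per cell cannot be told apart.

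Of the 67 members, 64 passed the filter on low counts, and 40 of them fell with STAT3 shRNA (edgeR, adjusted p under 0.05). None rose past that threshold, 1 was higher at an unadjusted p under 0.05 (COX18), and DESeq2 and limma also called 0 higher. Over all 15199 genes tested, 18.7% were called lower and 16.8% higher. The median log2 fold change was -0.39 over the tested members and 0.02 over all tested genes, and 59 of 64 members lay below 0. For 55 members both STAT3 shRNA libraries were below both Ctrl shRNA libraries, as they were for 34.3% of all tested genes. For 3 members both were above, as they were for 36.5% of all tested genes. At least 2-fold lower were 4 members, ATP5MC3, ATP5IF1, UQCC3 and COX5B, where 3.61% of all tested genes passed both the test and that fold. The summed level of all members was 9014 and 10320 CPM with Ctrl shRNA and 7187 and 7327 CPM with STAT3 shRNA, or 75.1% of the Ctrl shRNA mean.

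**Figure D1:**
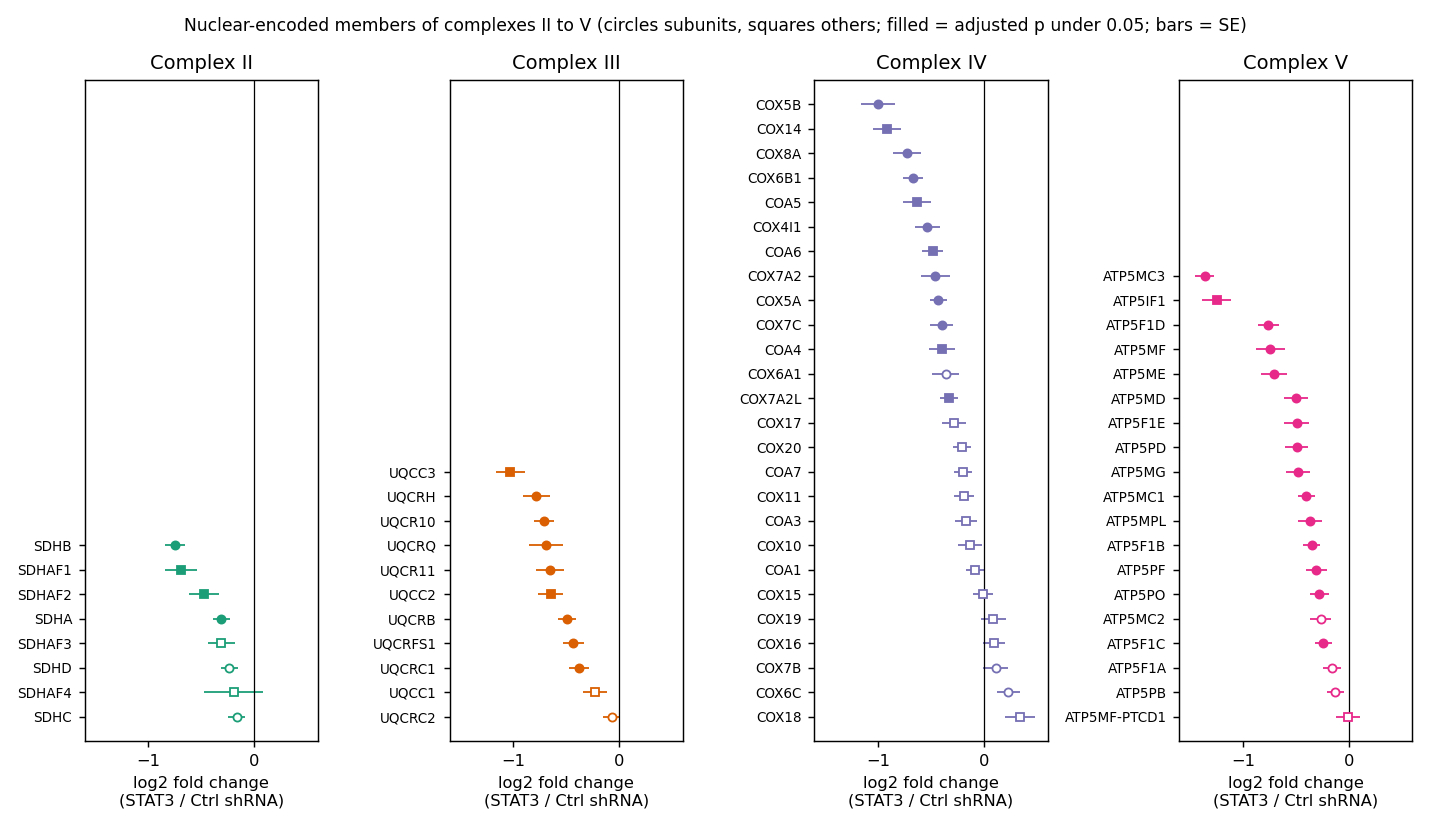
Log2 fold change (STAT3 shRNA over Ctrl shRNA) of the 64 tested members in 4 panels, 1 for each complex; bars are standard errors, circles are subunits, squares are assembly factors and other genes, and filled symbols passed an adjusted p of 0.05. Filled symbols lie to the left of 0 in each panel, and ATP5MC3 and ATP5IF1 lie farthest out.

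Structural subunits and assembly factors were counted apart. Of 39 tested subunits 30 fell, with a median log2 fold change of -0.43. Of 23 tested assembly factors 9 fell, with a median of -0.23. The difference between these 2 counts was not tested. By complex, 4 of 8 tested members fell in complex II, 9 of 11 in complex III, 12 of 26 in complex IV and 15 of 19 in complex V, with medians of -0.31, -0.65, -0.31 and -0.40. The largest log2 difference among members that did not pass was -0.36, in COX6A1.

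The 2 Ctrl shRNA libraries were not alike for these genes. In 50 of 64 members the second Ctrl shRNA library was above the first, with a median log2 difference of 0.21 where the median over all tested genes was -0.0023. The 2 STAT3 shRNA libraries differed by a median of 0.02. Leaving out 1 Ctrl shRNA library leaves the other, which is then assumed to vary like this closer STAT3 shRNA pair. Without the first Ctrl shRNA library 48 members fell and their median was -0.53. Without the second Ctrl shRNA library 40 fell, their median was -0.28, and COX6C and COX7B were called higher. The share of all genes called lower was 24.5% without the first and 18.3% without the second. Without the first or the second STAT3 shRNA library, which leaves 1 library assumed to vary like the Ctrl shRNA pair, 21 and 20 members fell. In those 2 fits the share of all genes called lower was 8.92% and 8.95%. For members called in all 4 such fits no share of all tested genes was computed, so no count of them is given.

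**Figure D2:**
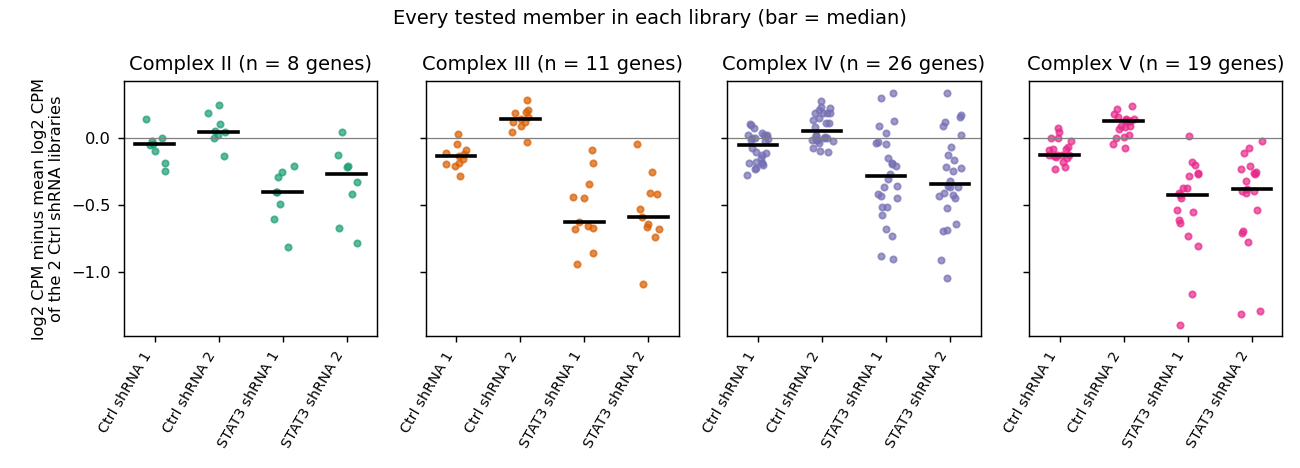
Each tested member in each library, as log2 CPM minus the mean log2 CPM of the 2 Ctrl shRNA libraries, in 4 panels by complex; points are genes and the bar is their median. In every panel the median of the second Ctrl shRNA library sits above that of the first, and the medians of both STAT3 shRNA libraries sit below both.

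Promoter sequence is shown for 4 members that fell, because they moved together and differ in the motifs they hold. RefSeq promoter windows (GRCh38.p14) matched 55 of the 67 members by symbol or synonym. No window was matched for ATP5MC3, UQCC3, UQCRB, ATP5F1D, ATP5MF and ATP5F1B, which fell, so the motif counts leave them out. The 250 bases upstream of each start were searched on both strands for 4 motifs. These were the ETS motif bound by GABPA (CCGGAAG), the STAT motif of gamma-activated sites (TTCNNNGAA), the core of the NRF1 motif (GCATGCG) and the core of the YY1 motif (AAGATGG). Capitals mark matches: an NRF1 and then an ETS match in COX5B, a STAT and then an ETS match in COX8A, 2 ETS matches in UQCR11 and no match in ATP5IF1. The COX5B window is chr2:97645812-97646061 on the plus strand, COX8A is chr11:63974370-63974619 on the plus strand, UQCR11 is chr19:1605463-1605712 on the minus strand and ATP5IF1 is chr1:28235874-28236123 on the plus strand.
COX5B: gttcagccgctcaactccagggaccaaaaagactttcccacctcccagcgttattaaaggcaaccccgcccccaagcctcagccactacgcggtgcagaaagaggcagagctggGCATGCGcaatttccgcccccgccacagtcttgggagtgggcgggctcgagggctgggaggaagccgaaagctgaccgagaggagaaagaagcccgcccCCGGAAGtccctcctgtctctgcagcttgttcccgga
COX8A: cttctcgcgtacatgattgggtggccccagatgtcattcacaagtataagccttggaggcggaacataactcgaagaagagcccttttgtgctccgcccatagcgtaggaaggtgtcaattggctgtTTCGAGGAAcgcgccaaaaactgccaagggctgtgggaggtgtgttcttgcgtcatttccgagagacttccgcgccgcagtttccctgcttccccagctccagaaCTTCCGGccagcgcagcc
UQCR11: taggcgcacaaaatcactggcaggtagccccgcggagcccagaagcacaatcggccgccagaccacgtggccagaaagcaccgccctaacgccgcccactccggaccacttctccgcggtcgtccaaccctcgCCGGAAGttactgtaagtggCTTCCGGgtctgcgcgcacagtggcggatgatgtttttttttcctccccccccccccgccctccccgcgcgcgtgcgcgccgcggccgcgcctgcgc
ATP5IF1: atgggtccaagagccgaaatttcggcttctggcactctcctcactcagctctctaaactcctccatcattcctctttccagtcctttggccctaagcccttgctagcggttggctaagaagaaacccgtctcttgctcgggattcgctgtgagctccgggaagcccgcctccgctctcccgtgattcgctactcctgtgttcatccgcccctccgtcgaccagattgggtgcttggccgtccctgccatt

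The ETS motif was in 19 of 55 member windows (34.5%), against 8.81% of 27305 RefSeq windows of the same length and 16.2% of the 10529 windows of tested genes. It was in 13 of the 34 windows of members that fell and in 6 of the 20 windows of members that did not pass. The STAT motif was in 7 windows (12.7%, against 6.78% of all windows and 5.64% of those of tested genes): SDHB, SDHAF2, SDHAF3, COA4, COX8A, COX7A2 and COX10. Of these 5 belong to members that fell and 2 to members that did not pass, and 3 of the 7 matches overlap an ETS match. The NRF1 core was in 12 windows (21.8%, against 3.57% of all and 5.79% of those of tested genes), 7 of members that fell, among them SDHB, UQCC2, COX5B and ATP5ME, and 5 of members that did not pass. The YY1 core was in COX7C, ATP5MG and ATP5PF (5.45% of windows, against 3.77% of all and 3.44% of those of tested genes). These 3 fell, but so did most members with a window (34 fell and 20 did not pass). Of the 55 windows 27 held none of the 4 motifs. A match is a run of letters and no measure of binding.

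In complex II the flavin and iron-sulfur subunits and 2 of 4 assembly factors fell, and the membrane anchors did not pass. SDHB carries the iron-sulfur clusters that take electrons from the flavin to ubiquinone. It is on the minus strand of chr1:17018722-17054170 (GRCh38) and was at 101 and 108 CPM with Ctrl shRNA and at 59.4 and 65.5 CPM with STAT3 shRNA. Both STAT3 shRNA libraries were below both Ctrl shRNA libraries, and the log2 fold change was -0.75 (SE 0.09, adjusted p = 0.000494). SDHA, the flavoprotein that oxidises succinate, was at 577 and 613 CPM and at 486 and 473 CPM. The groups did not overlap, and SDHA fell by 0.31 on the log2 scale (SE 0.08, adjusted p = 0.0148). SDHA has near-identical copies elsewhere in the genome, among them SDHAP1, and whether reads were shared with them was not tested. With the copies' reads added it kept its call. On the deposited FPKM values its log2 fold change was -0.07.

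SDHAF1, needed for the iron-sulfur clusters of SDHB, was at 15.3 and 17.6 CPM with Ctrl shRNA and at 10.8 and 9.51 CPM with STAT3 shRNA (log2 fold change -0.69, adjusted p = 0.00767). SDHAF2, which helps attach the flavin to SDHA, was at 21.0 and 27.2 CPM and at 17.0 and 17.8 CPM (log2 fold change -0.47, adjusted p = 0.0306). Neither pair of groups overlapped, though SDHAF2 shares its span with another gene on the same strand that held 64.4% as many reads. Without the second Ctrl shRNA library SDHAF2 was at -0.28 (adjusted p = 0.105). The membrane anchor SDHC was at 154 and 159 CPM and at 136 and 143 CPM (log2 fold change -0.17, adjusted p = 0.141). The other anchor, SDHD, was at -0.24 on the log2 scale (adjusted p = 0.0512). SDHAF3 (-0.31) and SDHAF4 (-0.20) did not pass either. Over 16 alternatives the log2 fold change of SDHB ran from -0.83 to -0.58 and that of SDHA from -0.39 to -0.07.

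Complex III had the lowest median of the 4 complexes, and its 5 small subunits UQCRB, UQCRQ, UQCRH, UQCR10 and UQCR11 all fell. UQCRH, the hinge protein next to cytochrome c1, was at 237 and 311 CPM with Ctrl shRNA and at 150 and 169 CPM with STAT3 shRNA (log2 fold change -0.78, SE 0.13, adjusted p = 0.0021). UQCR10 was at 73.5 and 83.4 CPM and at 49.0 and 46.8 CPM (log2 fold change -0.71, adjusted p = 0.000798). UQCRQ, which lies close to the ubiquinone site, was at 160 and 238 CPM and at 124 and 123 CPM (log2 fold change -0.69, adjusted p = 0.0095). In these 3 genes both STAT3 shRNA libraries were below both Ctrl shRNA libraries, and the Ctrl shRNA pair was spread most in UQCRQ. The UQCRQ log2 fold change was -0.98 without the first and -0.38 without the second Ctrl shRNA library, and DESeq2 gave it an adjusted p of 0.052. UQCRB, a subunit at the ubiquinone site, was at 124 and 132 CPM and at 93.6 and 88.8 CPM, and fell by 0.49 on the log2 scale (adjusted p = 0.00259). On FPKM the UQCRB value was -0.09, and without the second STAT3 shRNA library its adjusted p was 0.0553.

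Of the 2 core proteins that line the matrix side of complex III, UQCRC1 fell (log2 fold change -0.38) and UQCRC2 did not pass (-0.07). On log2(FPKM + 1) UQCRC2 was at 0.33, with no call. The Rieske iron-sulfur protein UQCRFS1, which moves electrons to cytochrome c1, fell by 0.43. Among assembly factors, UQCC3, which acts early in the building of cytochrome b, is on the plus strand of chr11:62670273-62673687. It was at 36.3 and 47.1 CPM with Ctrl shRNA and at 21.5 and 19.3 CPM with STAT3 shRNA, a log2 fold change of -1.03 (SE 0.14, adjusted p = 0.000757). The opposite-strand gene LBHD1, which overlaps it and held 64.9% as many reads, was at -0.08 on the log2 scale (adjusted p = 0.609). UQCC2, which acts with UQCC1 on cytochrome b, fell by 0.65, but ITPR3, which overlaps it on the opposite strand, held 674% as many reads. UQCR11 overlaps AC005943.1 on the same strand, which held 262% as many reads and was at -0.04. Whether the counting used strand is not given in the sources used here. UQCC1 did not pass (-0.23), and UQCRHL, a retrocopy of UQCRH, had at most 1 read in any library and was not tested.

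In complex IV 7 of 10 tested subunits fell, with a median of -0.45, and 5 of 16 assembly factors, with a median of -0.19. COX5B, a peripheral subunit that binds zinc, is on the plus strand of chr2:97646040-97648383 and was at 107 and 157 CPM with Ctrl shRNA and at 69.1 and 62.9 CPM with STAT3 shRNA. The lower Ctrl shRNA library was still above both STAT3 shRNA libraries, and the log2 fold change was -1.0 (SE 0.16, adjusted p = 0.00178). COX8A, a small subunit that spans the inner membrane, was at 154 and 210 CPM and at 108 and 112 CPM (log2 fold change -0.73, adjusted p = 0.0035). COX6B1, which sits on the side facing cytochrome c, was at 131 and 152 CPM and at 87.5 and 89.8 CPM (log2 fold change -0.67, adjusted p = 0.001). The groups did not overlap in these 3 genes. Over 16 alternatives the log2 fold change ran from -1.28 to -0.70 in COX5B, -0.97 to -0.49 in COX8A and -0.81 to -0.48 in COX6B1.

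COX4I1, which takes part in the enzyme's control by ATP, fell by 0.53. COX5A, which binds thyroid hormone metabolites and faces the matrix, was at 220 and 220 CPM with Ctrl shRNA and at 163 and 164 CPM with STAT3 shRNA (log2 fold change -0.43, adjusted p = 0.0033). The libraries of each group lay close together for COX5A. COX7C, a small membrane subunit, was at 246 and 304 CPM and at 204 and 212 CPM (log2 fold change -0.40, adjusted p = 0.0187). COX7A2, the form of subunit 7A made in most tissues, was at 112 and 154 CPM and at 96.1 and 97.2 CPM (log2 fold change -0.46, adjusted p = 0.0289). These groups were also separated, but COX5A, COX7C and COX7A2 missed the threshold without either STAT3 shRNA library, with adjusted p between 0.062 and 0.139. Without the first Ctrl shRNA library COX7A2 was at -0.71, and without the second COX7A2 was at -0.21 and COX7C at -0.25. With an offset for transcript length COX7A2 was at -0.27 (adjusted p = 0.0859). Subunits that did not pass were COX6A1, COX7B (0.11) and COX6C, which was at 68.0 and 81.6 CPM and at 91.6 and 83.8 CPM (log2 fold change 0.23, adjusted p = 0.124). The muscle form COX7A1 had 0 reads in all libraries and COX6B2, the testis form of subunit 6B, had 1 to 6 reads, so neither was tested.

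COX7A2L, a relative of COX7A2 that joins complexes III and IV into supercomplexes, was at 66.8 and 65.0 CPM with Ctrl shRNA and at 53.4 and 51.3 CPM with STAT3 shRNA. It fell by 0.33 on the log2 scale (SE 0.09, adjusted p = 0.0171), but on FPKM its log2 fold change was 0.05 with no call, and without the first or second STAT3 shRNA library its adjusted p was 0.151 and 0.224. The log2 ratio of COX7A2 over COX7A2L was 0.74 and 1.25 with Ctrl shRNA and 0.85 and 0.92 with STAT3 shRNA. The groups overlapped in that ratio (2-sided exact permutation p = 1).

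COX14, which couples the making of COX1 to its assembly, was the assembly factor of complex IV with the largest difference. It was at 41.8 and 54.3 CPM with Ctrl shRNA and at 25.8 and 25.3 CPM with STAT3 shRNA, with no overlap (log2 fold change -0.91, SE 0.13, adjusted p = 0.00109). COA5 (-0.64), COA6 (-0.48) and COA4 (-0.40) also fell. Of 4 members that handle copper for the enzyme, COX11, COX17, COX19 and COA6, only COA6 was called. Outside the name rule, SCO2, which also handles copper, fell by 0.82 at its more abundant identifier (edgeR adjusted p = 0.00182). Its other identifier (-0.91) and the related SCO1 (-0.14) did not pass. Neither COX10 (-0.13) nor COX15 (-0.01), which make heme A, was called. COX18, which helps insert COX2 into the inner membrane, was at 10.7 and 10.3 CPM and at 13.2 and 13.2 CPM, the highest log2 fold change among members at 0.34 (adjusted p = 0.0967). Without either STAT3 shRNA library 6 and 5 members of complex IV fell.

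Complex V held the 2 members with the largest differences. ATP5MC3 is 1 of 3 genes whose products are processed to the same c-subunit of the membrane rotor, and is on the minus strand of chr2:175176258-175184607. It was at 244 and 274 CPM with Ctrl shRNA and at 98.1 and 103 CPM with STAT3 shRNA, a log2 fold change of -1.36 (SE 0.09, adjusted p = 2.59e-05). ATP5MC1 was at 133 and 137 CPM and at 101 and 103 CPM (log2 fold change -0.40, SE 0.08, adjusted p = 0.00508). ATP5MC2 was at 264 and 315 CPM and at 240 and 241 CPM (log2 fold change -0.27, SE 0.10, adjusted p = 0.0636). In all 3 genes the STAT3 shRNA libraries were below the Ctrl shRNA libraries, and ATP5MC2 passed under 5 of 16 alternatives, among them DESeq2 (adjusted p = 0.0351). Without the first Ctrl shRNA library it was at -0.42 and without the second at -0.14.

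The shares of the 3 c-subunit genes in their summed reads were computed for each library. ATP5MC3 took 38.1% (95% Wilson interval 37.2% to 38.9%) and 37.8% (37.0% to 38.6%) of their reads with Ctrl shRNA. It took 22.3% (21.6% to 23.1%) and 23.1% (22.2% to 24.1%) with STAT3 shRNA, and these intervals cover counting error only. On FPKM, which scales by length, its share was 26.6% and 28.8% against 16.3% and 16.8%. The log2 ratio of ATP5MC3 over ATP5MC1 was 0.88 and 1.0 with Ctrl shRNA and -0.05 and 0.01 with STAT3 shRNA, a difference of -0.96. That of ATP5MC3 over ATP5MC2 differed by -1.10. Neither ratio overlapped between groups, and each had a 2-sided exact permutation p of 0.333, the smallest that 2 against 2 libraries allow. The 3 genes together were at 640 and 726 CPM and at 440 and 447 CPM.

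**Figure D3:**
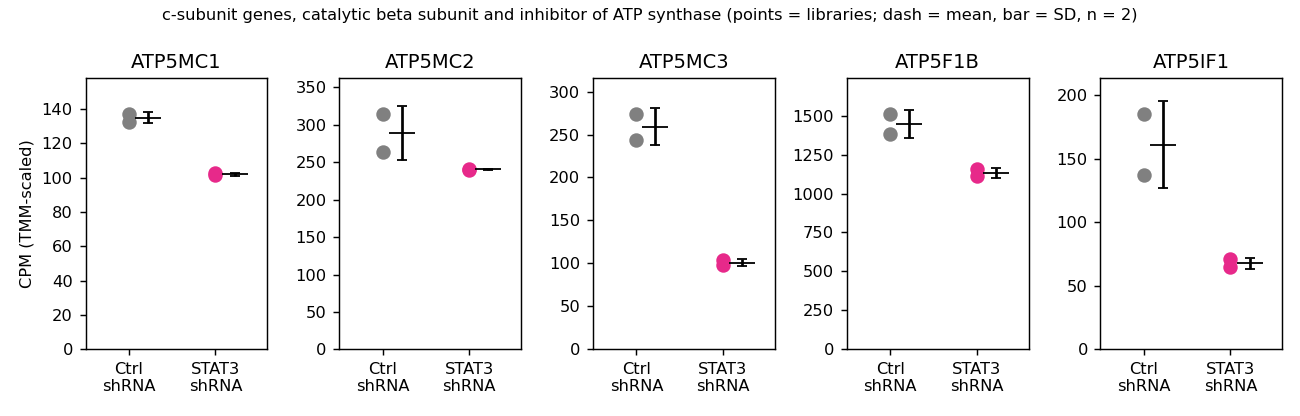
CPM of the 3 c-subunit genes, the catalytic subunit ATP5F1B and the inhibitor ATP5IF1 in each library, on linear axes from 0; points are libraries, the dash is the mean and the bar is the SD of 2 libraries. ATP5MC3 dropped from 244 and 274 CPM to 98.1 and 103 CPM while ATP5MC2 went from 264 and 315 CPM to 240 and 241 CPM.

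ATP5IF1, the small protein that blocks ATP synthase from running backwards and splitting ATP, is on the plus strand of chr1:28236109-28246906. It was at 137 and 185 CPM with Ctrl shRNA and at 70.9 and 64.7 CPM with STAT3 shRNA, a log2 fold change of -1.25 (SE 0.14, adjusted p = 0.000301). Both STAT3 shRNA libraries were well below the lower Ctrl shRNA library. ATP5F1B, the catalytic beta subunit, was at 1380 and 1511 CPM and at 1111 and 1155 CPM (log2 fold change -0.35, SE 0.08, adjusted p = 0.00975). The log2 ratio of ATP5IF1 over ATP5F1B was -3.34 and -3.03 with Ctrl shRNA and -3.97 and -4.16 with STAT3 shRNA. It differed by -0.88 without overlap (exact permutation p = 0.333).

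Within the F1 head, which makes ATP, 4 of 5 genes fell, and the alpha subunit ATP5F1A did not pass (-0.16). ATP5F1D, the delta subunit of the central stalk, was at 203 and 243 CPM with Ctrl shRNA and at 127 and 137 CPM with STAT3 shRNA, without overlap (log2 fold change -0.76, SE 0.10, adjusted p = 0.000798). The other stalk subunits ATP5F1E (-0.49) and ATP5F1C (-0.24) fell as well. In the peripheral stalk, which holds the head still, ATP5PD (-0.49), ATP5PF (-0.31) and ATP5PO (-0.28) fell and ATP5PB did not pass (-0.13). ATP5PF overlaps GABPA on the opposite strand, which held 48.0% as many reads and was called higher (0.29).

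All 5 small membrane subunits of complex V fell. These line the membrane part and join the enzyme into dimers. ATP5MF was at 215 and 298 CPM with Ctrl shRNA and at 152 and 155 CPM with STAT3 shRNA (log2 fold change -0.74, adjusted p = 0.00364). ATP5ME was at 35.2 and 42.2 CPM and at 24.8 and 22.5 CPM (log2 fold change -0.71, adjusted p = 0.00243). Both were separated between groups, and without the second Ctrl shRNA library ATP5MF was at -0.49. ATP5MD (-0.50), ATP5MG (-0.48) and ATP5MPL (-0.37) had smaller differences. ATP5MF had the highest mean FPKM of all members, 2108 with Ctrl shRNA and 1079 with STAT3 shRNA. Its FPKM and counts together imply a length of only 104 to 154 bases, and on CPM it was well below ATP5F1B. The read-through gene ATP5MF-PTCD1, which shares its exons with ATP5MF and PTCD1, did not pass (-0.0045). Without the first or second STAT3 shRNA library 6 and 8 members of complex V fell, ATP5F1B (adjusted p = 0.137 and 0.082) and ATP5MC1 (0.0943 and 0.0786) not among them.

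Summed over all their members the complexes stood as follows. With STAT3 shRNA, complex II members summed to 79.6% of their Ctrl shRNA mean, complex III to 70.9%, complex IV to 77.4% and complex V to 74.2%. These sums follow the most abundant genes and were not tested.

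Counts and deposited FPKM values gave close medians but different counts of calls. The median log2 fold change of members was -0.36 on log2(FPKM + 1) and -0.39 on counts. Below 0 were 53 of 64 members on log2(FPKM + 1) and 59 on counts. On that FPKM scale limma called 11 members lower, against 5.04% of all genes, and with a pseudocount of 0.1 it called 14, against 5.77%. In both FPKM fits and in the count test 10 members fell: SDHB, SDHAF1, UQCC2, UQCC3, UQCR10, UQCR11, COA6, ATP5MC1, ATP5MC3 and ATP5IF1. The share of all tested genes that fell in all of these fits was not computed. The length that FPKM and count together imply for a gene varied between libraries, by a median factor of 1.18 and up to 2.65 in ATP5ME. For ATP5ME the log2 fold change was -1.37 on FPKM and -0.71 on counts, and for SDHA, UQCRB and COX7A2L it was nearer 0 on FPKM than on counts. The members' transcripts had a median length of 1847 bases where all tested genes had 3408, and a median GC content of 46.4% against 48.7%. Across genes the log2 fold change and GC content had a Spearman rho of -0.34, and the difference of the second from the first Ctrl shRNA library had one of 0.47, as a description only. With an offset for GC content the members' median was -0.46 and 50 fell, where 18.6% of all genes were called lower. With an offset for length the median was -0.28, 38 fell, where 20.3% of all genes were called lower, and COX6C was called higher.

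**Figure D4:**
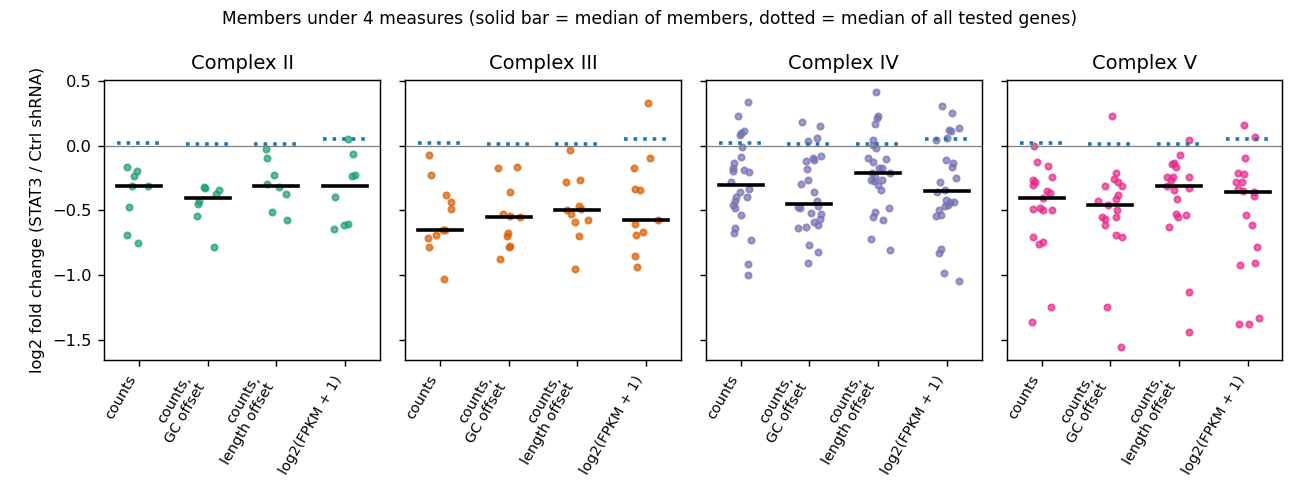
Log2 fold change of each tested member on counts, on counts with an offset for GC content or for transcript length, and on log2(FPKM + 1), in 4 panels by complex; points are genes, solid bars are member medians and dotted bars are medians of all tested genes. The member medians lie below the dotted bars under all 4 measures.

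Position on the chromosome was also compared, since neighbours of some members were low as well. For each member the 25 tested genes on either side were taken. Around ATP5MC3 the neighbours had a median log2 fold change of -0.39 and 44 of 50 were below 0, and around SDHB the median was -0.50 with 37 of 50 below 0. The neighbours of COX4I1 had a median of -0.34, and those of COX5B 0.01 and of ATP5IF1 0.02. Low medians were also found around ATP5F1D (-0.34), UQCR11 (-0.28) and COX8A (-0.27), whereas the neighbours of UQCRFS1 had a median of 0.23. ATP5MC3 lay 0.97 below its neighbours' median, SDHB 0.25 below, COX5B 1.01 below and ATP5IF1 1.27 below. Of the 64 members 59 were below the median of their own neighbours, with a median difference of -0.39. The share of all tested genes below their own neighbours was not computed. The neighbour medians themselves had a median of 0.01 over the members, so this count is close to a repeat of the 59 below 0. Without the members on chromosome 2, which were ATP5MC3, COX5B, COA5 and COX7A2L, 36 of 60 fell. All 4 had been called lower, so leaving them out could only lower the count. The neighbours of COX5B, COA5 and COX7A2L had medians of 0.01, 0.01 and 0.12, so this split cannot speak to position. Without the 17 members that overlap a gene with at least 20% as many reads, 32 of 47 fell.

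**Figure D5:**
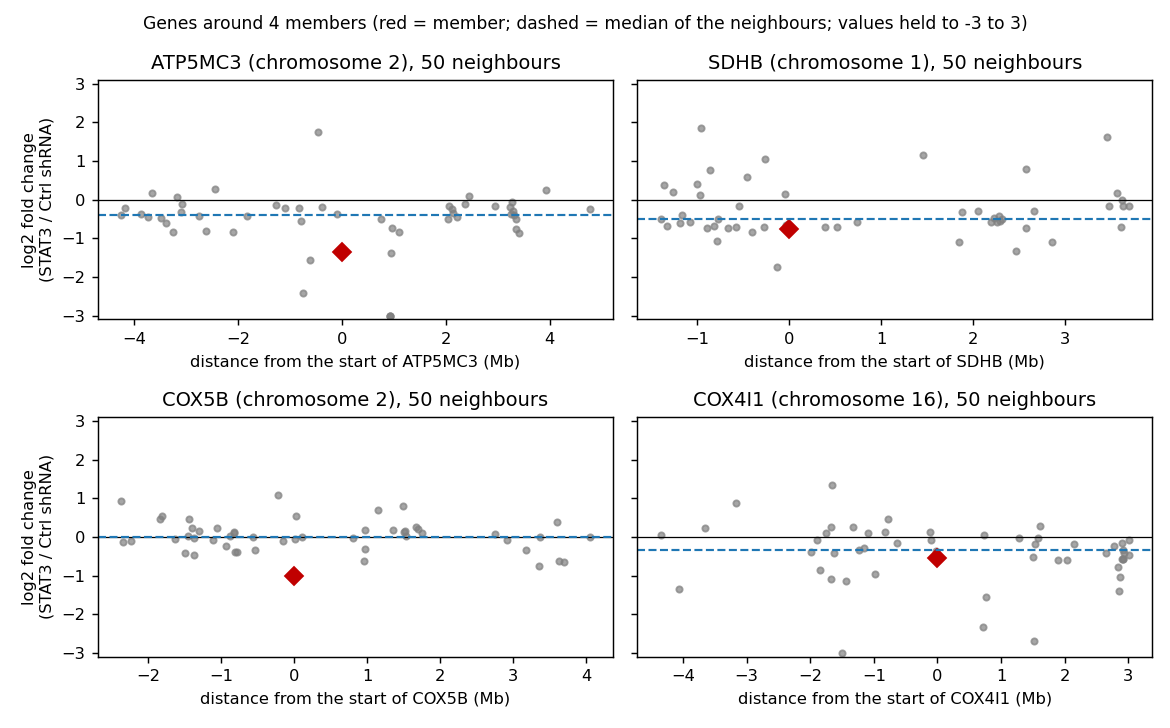
Log2 fold change of the 25 tested genes on either side of ATP5MC3, SDHB, COX5B and COX4I1 against distance from the member's start in megabases; red diamonds are the members, grey points the neighbours and dashed lines their median. The neighbours of ATP5MC3, SDHB and COX4I1 center below 0 and those of COX5B at 0.01.

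Among genes of the same complexes with other names, cytochrome c1 (CYC1), the complex III subunit that hands electrons on, was at 295 and 341 CPM with Ctrl shRNA and at 193 and 189 CPM with STAT3 shRNA and fell by 0.74 (SE 0.09). Cytochrome c itself (CYCS) fell by 0.56, though on log2(FPKM + 1) its log2 fold change was -0.11 with no call, and its group means were 135 and 124 FPKM. NDUFA4, a subunit found with complex IV, did not pass (0.04). DMAC2L, a factor linked to ATP synthase, rose by 0.57, but the call was lost without the second STAT3 shRNA library and in both FPKM fits (0.20 with a pseudocount of 1). So 2 of these 4 genes fell and 1 rose on counts.

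Of 26 listed rows for assembly and translation factors outside the name rule (25 symbols, with SCO2 under 2 identifiers), 8 fell, 1 rose and the median was -0.30. PET100, which helps start complex IV assembly, went from 20.9 and 28.3 CPM to 8.85 and 8.04 CPM (log2 fold change -1.54). FMC1, a factor for ATP synthase, went from 17.0 and 25.1 CPM to 7.05 and 7.88 CPM (-1.50), and BCS1L, which inserts the Rieske protein UQCRFS1 into complex III, from 40.5 and 45.1 CPM to 21.8 and 20.6 CPM (-1.01). All 3 were separated between groups. PET100 lost its call in both FPKM fits (-1.37 and -1.41), and FMC1 and BCS1L kept theirs. TTC19, a complex III factor, rose by 0.34, but the call was lost under DESeq2, with the GC offset (0.14), in both FPKM fits and without either STAT3 shRNA library. The 8 that fell are 30.8% of the list, against 18.7% of all tested genes. Without either STAT3 shRNA library 5 of the 26 fell, where 8.92% and 8.95% of all genes were called lower. Without the first or second Ctrl shRNA library 15 and 12 fell, where the shares of all genes were 24.5% and 18.3%.

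Of 13 regulators of respiratory genes 2 fell and 3 rose, with a median of -0.14. These are 15.4% and 23.1% of the list, near the 18.7% and 16.8% of all tested genes. ESRRA, a nuclear receptor that switches on respiratory genes, went from 86.8 and 115 CPM with Ctrl shRNA to 47.5 and 48.5 CPM with STAT3 shRNA (log2 fold change -1.07, adjusted p = 0.00046). Its coactivator PPARGC1A went from 9.23 and 7.63 CPM to 18.6 and 17.1 CPM (log2 fold change 1.09, adjusted p = 0.000988). POLRMT, the mitochondrial RNA polymerase, fell by 0.46, and TFAM, which packs and transcribes mitochondrial DNA, rose by 0.40. GABPA, which binds the ETS motif, was called higher at 0.29 (adjusted p = 0.0456), and NRF1 and YY1 were not called. With the GC offset POLRMT was at -0.08, TFAM at 0.20 and GABPA at 0.10, none of them called, so 1 of the 13 was called higher. Without either STAT3 shRNA library 1 of the 13 fell and 1 rose, and on FPKM with a pseudocount of 1 limma called none, with 2 lower and 4 higher at an unadjusted p under 0.05.

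The mitochondrially encoded subunits of complexes III to V were also measured. Their 6 genes summed to 20168 and 19559 CPM with Ctrl shRNA and to 26629 and 24436 CPM with STAT3 shRNA. Of them 5 rose and none fell (edgeR, 0 lower at an unadjusted p under 0.05), with a median of 0.40, and MT-CO3 did not pass (0.17). The 5 are 83.3% of the list, where 16.8% of all tested genes were called higher. MT-CO1, the core of complex IV, went from 7986 and 8223 CPM to 11146 and 10149 CPM (log2 fold change 0.39). On FPKM the median was 0.36 but limma called none of the 6 (3 were higher at an unadjusted p under 0.05), and without the first STAT3 shRNA library edgeR called 2. MT-ATP8 had a log2 fold change of 1.36 on counts and -0.07 on log2(FPKM + 1). The difference between nuclear and mitochondrial genes was not tested.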

How the data were processed

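RNA-seq of cells labelled HepG2 was analysed from 2 tables of the whole series, which hold 2 Ctrl shRNA and 2 STAT3 shRNA libraries. The deposited count table holds whole reads per gene and the deposited FPKM table holds fragments per kilobase of transcript and per 1000000 mapped fragments, computed by the authors. For the aligner, counter, annotation and strand setting the entry is: not given in the sources used here. The column names read "Si" where the labels read STAT3 shRNA, and that match was inferred from cell line and number. Members and gene lists were chosen with earlier results of these data known, and the grouping of members by role within a complex was made after their values were seen.

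Counts of all genes were tested with the quasi-likelihood test of edgeR 4.0.16 (R 4.3.3, TMM scaling, its default filter on low counts, group as the only term), 2-sided, with Benjamini-Hochberg adjustment over 15199 genes and a threshold of 0.05. Values per library are TMM-scaled CPM. The script was tested on simulated counts. Alternatives were other scalings and filters, each library left out, DESeq2 1.42.0, limma 3.58.1 on log2(FPKM + 1) and log2(FPKM + 0.1) for genes with a mean FPKM of at least 0.5, offsets for GC content and transcript length, near-identical copies summed (blastn 2.17.0, at least 95% identity over 50% of the shorter transcript), a test against a fold of 1.5 and a stricter threshold (0.01). Positions, lengths and GC content came from GENCODE 29 (GRCh38), in which all 67 members had a gene, and promoters from RefSeq GRCh38.p14.

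Values per library are given for the 4 members of each complex with the smallest p, the 2 with the highest mean FPKM, tested genes of isoform pairs, and a few members and listed genes picked after their values were seen (COX18 and COX6C among them). Within each group the libraries were further apart than counting noise (chi-square per degree of freedom 13.9 and 4.2). Each library was treated as 1 sample, though that scatter may be technical and does not show separate cultures. Same-numbered libraries did not deviate together (correlation -0.03). Of the listed genes, 4 subunits or carriers, 6 hepatocyte, 1 fibroblast, 2 endothelial and 2 immune markers are not analysed here. No protein sequence is used here.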

Additional observations from a re-analysis of the deposited data

How the results depend on the processing

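Of 40 members that fell, the count stayed within 1.5 times under RLE and upper-quartile scaling, both other filters, DESeq2, the GC and length offsets and summed copies. It was 11 and 14 on log2(FPKM + 1) and log2(FPKM + 0.1), 3 against a fold of 1.5, 26 at a threshold of 0.01, and 20 to 48 with 1 library left out. No member rose except 1 with the length offset and 0 to 2 with a library left out. For complex II the count was 2 and 2 on FPKM, 7 with the GC offset, 0 against a fold of 1.5, 2 at a threshold of 0.01 and 1 to 6 with a library left out. For complex III it was 4 and 4 on FPKM and 1 against a fold of 1.5. For complex IV it was 2 and 5 on FPKM, 0 against a fold of 1.5 and 5 to 16 with a library left out. For complex V it was 3 and 3 on FPKM, 2 against a fold of 1.5, 8 at a threshold of 0.01 and 6 to 16 with a library left out. Genes called over the whole table numbered 5396, against 1652 and 1860 on FPKM, 999 with a fold of 1.5, 2897 at a threshold of 0.01 and 2527 to 7291 with a library left out. COX7A2L reversed on FPKM, to 0.0467 and 0.0477, and UQCRC2, which was not called on counts, was at 0.33 on log2(FPKM + 1). The cause of these changes was not tested, except that a fold or stricter threshold asks for more. With the replicate block, which takes numbers that the labels do not tie to a shared batch, 41 members fell, 39 of them among the 40, and 5447 genes were called. Over 432 alternative values of the named genes and STAT3, 351 kept call and direction, 71 lost the call, 8 gained it and 2 reversed. Chosen after seeing the data, members outside chromosome 2 gave 36 lower and those without a gene overlap at 20% of reads gave 32. With 2 libraries a group, no exact test could reach 0.05.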

Other observations

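Of the genes that the name rule leaves out, 16 were pseudogenes and 2 were antisense genes, and most had a few reads or none. SDHAP3, a pseudogene of SDHA, had 491 and 436 reads with Ctrl shRNA and 905 and 585 reads with STAT3 shRNA. It rose by 0.43 on the log2 scale (SE 0.11, edgeR adjusted p = 0.0158), where SDHA fell by 0.31. SDHAP1, another SDHA pseudogene, had a log2 fold change of -0.23 and did not pass. The antisense gene COX10-AS1 had 144 and 123 reads with Ctrl shRNA and 267 and 163 reads with STAT3 shRNA (log2 fold change 0.43, adjusted p = 0.0912), where COX10 had -0.13.

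Some members share their span with a gene that moved differently or more. TIMM8B, an import factor of the mitochondrial membrane space, overlaps SDHD on the opposite strand, held 81.5% as many reads and fell by 0.92, where SDHD had -0.24 and did not pass. STK17A overlaps COA1 on the opposite strand, held 75.4% as many reads and rose by 0.39, where COA1 had -0.08 and did not pass.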
